A study of Sus scrofa with 6 samples.

Results

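HBB, HBM and ALAS2 are genes of the red blood cell, and their transcripts in a piece of muscle are read here as a measure of the blood it held. They were taken as every probe set whose platform symbol is exactly HBB, HBM or ALAS2, which gave 3 probe sets, 1 for each gene, among 6765 genes named by a probe set with 1 symbol. The tissue was back muscle (longissimus dorsi). It came from 3 boars of the Large White breed, which served as control, and from 3 boars of the Northeastern Indigenous breed. All 6 animals were 150 days old and had been raised under shared feeding and housing. The muscle was rinsed in saline and frozen, and total RNA from each animal was read on 1 Affymetrix Porcine Genome Array. The labels name the arrays of a breed biological replicates, numbered 1 to 3.

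Red cells form in the bone marrow and lose their nucleus before they enter the blood, but young cells, the reticulocytes, still carry messenger RNA for haemoglobin and for haem synthesis. HBB encodes the beta chain of adult haemoglobin. HBM encodes the mu globin, a minor member of the alpha globin cluster, and ALAS2 encodes the erythroid form of 5-aminolevulinate synthase, the enzyme that starts haem synthesis in red cell precursors. Muscle fibres and other cells start haem synthesis with a different gene, ALAS1. In whole tissue, fewer cells of a type and less RNA per cell cannot be told apart.

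HBM and ALAS2 differed several-fold from animal to animal, varied together on most arrays, and did not part the breeds. The HBB probe set was nearly flat and did not follow them. All values below are log2 intensities after quantile normalization unless another scale is named, and a step of 1 is a doubling of the signal.

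ALAS2 read 11.22, 10.62 and 11.98 on Large White replicates 1, 2 and 3, and 9.63, 12.72 and 10.19 on Northeastern Indigenous replicates 1, 2 and 3. The highest and the lowest array were both Northeastern Indigenous, and all 3 Large White arrays lay between them. The lowest and the highest array differed 8.53-fold, and 9.55-fold in the intensities as deposited, where Northeastern Indigenous replicate 1 read 750.4 and replicate 2 read 7167. Large White arrays averaged 11.27 ± 0.68 and Northeastern Indigenous arrays 10.85 ± 1.65 (SD, n = 3 per breed).

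HBM read 9.20, 10.12 and 10.71 on Large White replicates 1, 2 and 3, and 8.42, 11.44 and 9.23 on Northeastern Indigenous replicates 1, 2 and 3. Northeastern Indigenous replicate 2 was again the highest array and replicate 1 the lowest, and the breeds overlapped. The range was 8.14-fold. The averages were 10.01 ± 0.76 for Large White and 9.70 ± 1.57 for Northeastern Indigenous arrays (SD, n = 3 per breed).

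HBB read 9.60, 9.50 and 9.69 on Large White replicates 1, 2 and 3, and 9.46, 9.50 and 10.06 on Northeastern Indigenous replicates 1, 2 and 3. The whole range was 1.52-fold. On Northeastern Indigenous replicate 2, the brightest array for HBM and ALAS2, HBB read 9.50, as on Large White replicate 2, and the highest HBB value was on Northeastern Indigenous replicate 3. The average was 9.60 ± 0.10 for Large White and 9.67 ± 0.34 for Northeastern Indigenous arrays (SD, n = 3 per breed). The label of this probe set as adult beta globin thus went against the other red cell genes, and it is called the HBB-labelled probe set from here on. The probe sequences were not analysed here, so which transcripts it detects was not tested.

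AHSP, the chaperone that holds free alpha globin in red cell precursors, gave a further reading of the same cells and was not among the members. It read 9.34, 9.49 and 11.57 on Large White replicates 1, 2 and 3, and 8.18, 11.49 and 8.43 on Northeastern Indigenous replicates 1, 2 and 3. Large White replicate 3 and Northeastern Indigenous replicate 2 stood above the other 4 arrays, with a range of 10.4-fold.

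**Figure D1:**
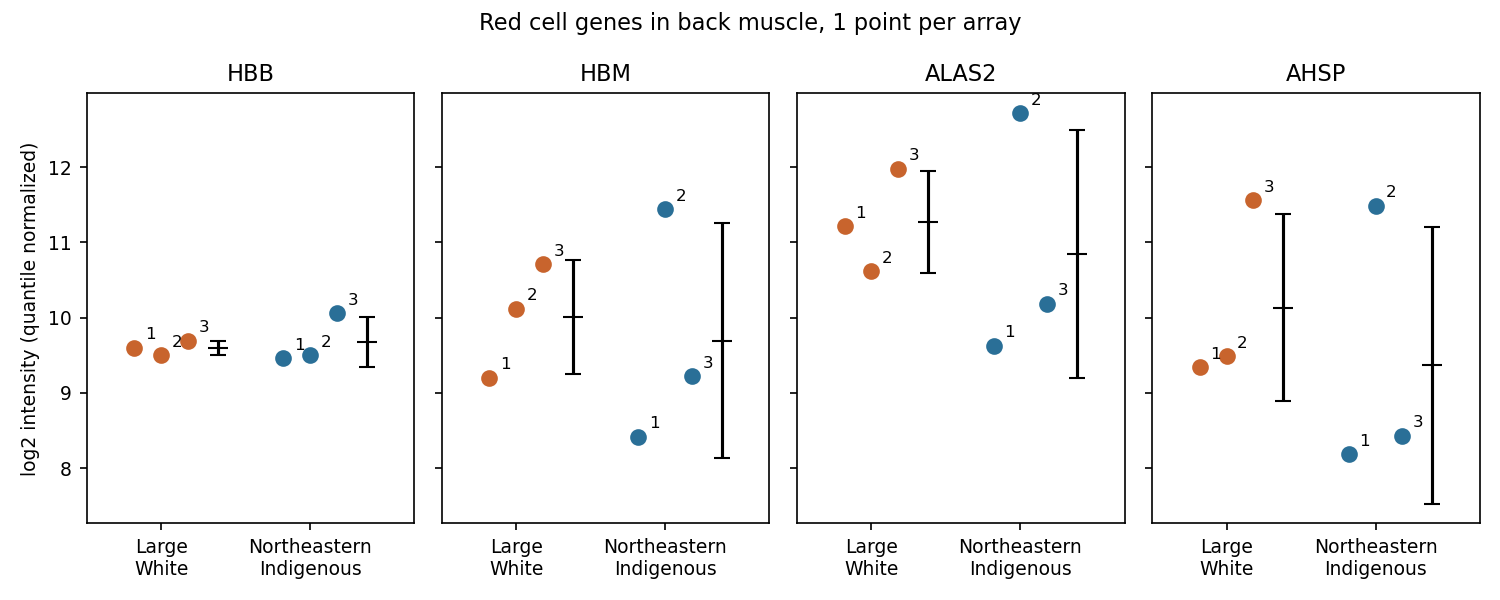
Log2 intensity (quantile normalized) of the HBB-labelled probe set, HBM, ALAS2 and AHSP, with 1 point per array, the replicate number beside it, and the mean ± SD of each breed (n = 3) to the right of its points. Northeastern Indigenous replicate 2 is the highest array for HBM (11.44) and ALAS2 (12.72), while the HBB-labelled probe set stays between 9.46 and 10.06.

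The comparison of the breeds asked whether back muscle of Northeastern Indigenous boars carried more or less of these transcripts than that of Large White boars. Limma, a linear model with variances shared across probe sets, called 0 of the 3 members at a Benjamini-Hochberg adjusted p under 0.05. It called 0% of the 14399 probe sets tested, and 18.8% had an unadjusted p under 0.05, against 0 of the 3 members. The Northeastern Indigenous minus Large White difference of ALAS2 was -0.43 ± 0.80 log2 units (SE; adjusted p = 0.761), with a 95% interval from -2.31 to 1.46. That of HBM was -0.31 ± 0.79 (SE; adjusted p = 0.824), with an interval from -2.17 to 1.54. As a ratio, the interval of ALAS2 ran from 4.97-fold lower to 2.75-fold higher in Northeastern Indigenous boars and that of HBM from 4.50-fold lower to 2.91-fold higher. The direction was set by single animals. Without Northeastern Indigenous replicate 1 the differences were 0.18 for ALAS2 and 0.32 for HBM. Without Northeastern Indigenous replicate 2 they were -1.35 (adjusted p = 0.383) and -1.19 (adjusted p = 0.398). Without Large White replicate 3 they were -0.07 and 0.04.

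The HBB-labelled probe set differed by 0.08 ± 0.27 log2 units (SE; limma adjusted p = 0.881), with a 95% interval from -0.57 to 0.72, and the sign turned in the deposited values without further normalization, at -0.07. AHSP differed by -0.76 ± 0.99 (SE; limma adjusted p = 0.650), and without Northeastern Indigenous replicate 2 by -1.82 (adjusted p = 0.385). The breeds overlapped in all 3 members and in AHSP, whereas they did not overlap in 25.1% of the probe sets tested.

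The spread between animals of 1 breed was where HBM and ALAS2 stood far out. Among the Northeastern Indigenous arrays the SD of ALAS2, 1.65, was larger than that of 99.5% of the 14399 probe sets, with 74 probe sets above it. The SD of HBM, 1.57, was larger than that of 99.3%, and the median SD of all probe sets in this breed was 0.27. In Large White boars the SDs of 0.68 for ALAS2 and 0.76 for HBM were larger than those of 67.2% and 72.4% of probe sets, where the median was 0.49. Thus the same genes were among the most variable in one breed and moderately variable in the other, and a difference in variance between breeds was not tested. Within the breeds, the SD of the HBB-labelled probe set was 0.34 in Northeastern Indigenous and 0.10 in Large White boars. These were larger than the SDs of 61.3% and 4.36% of probe sets. Over all 6 arrays its SD, 0.22, was larger than that of 8.60% of probe sets.

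**Figure D2:**
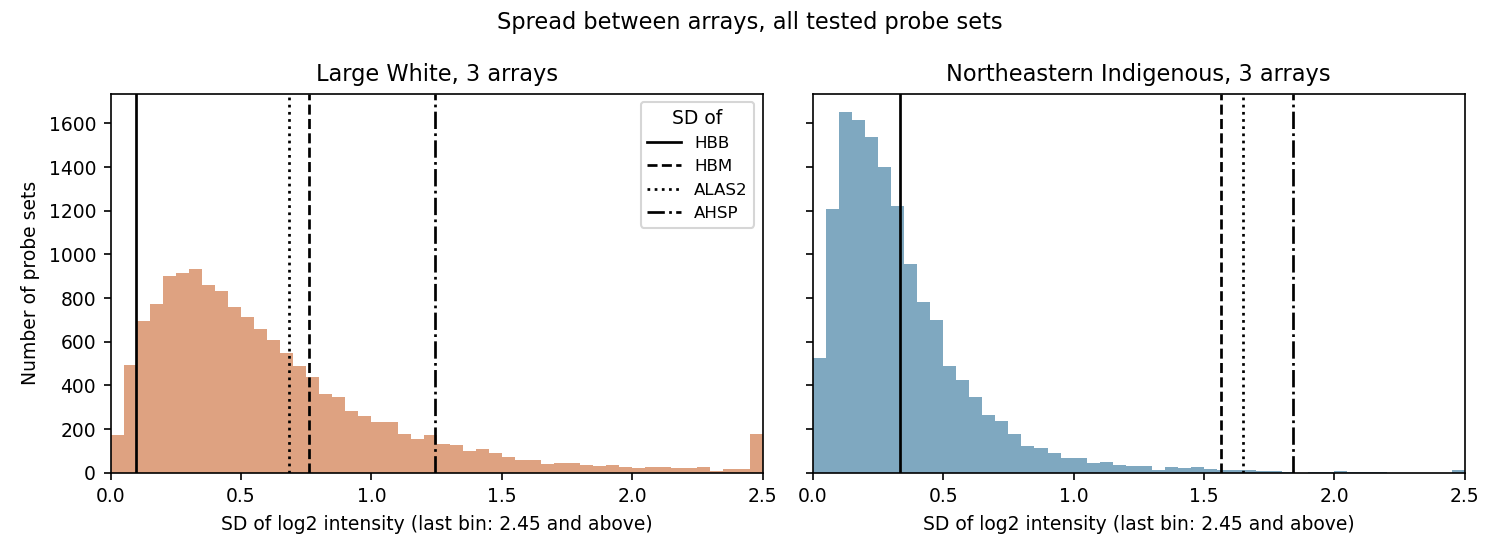
Number of probe sets (vertical axis) by the SD of log2 intensity over the 3 arrays of a breed (horizontal axis), for the 14399 probe sets tested, with lines at the SDs of the HBB-labelled probe set, HBM, ALAS2 and AHSP. In Northeastern Indigenous boars HBM (1.57), ALAS2 (1.65) and AHSP (1.84) lie in the far right tail, and the HBB-labelled probe set (0.34) lies near the bulk.

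Whether the members varied together was examined over the 6 arrays. HBM and ALAS2 had r = 0.90 (exact permutation p = 0.0278, two-sided; 0.0833 after Benjamini-Hochberg adjustment over the 3 pairs of members) and a Spearman rho of 0.83 (exact permutation p = 0.0583; adjusted 0.175). The adjusted values missed the threshold of 0.05. On the deposited values r was 0.93 (exact permutation, adjusted p = 0.025). Without Northeastern Indigenous replicates 1 and 2, the arrays farthest from the median of HBM, r was 0.64 over 4 arrays, so much of the relation rested on those animals. With each value taken as a deviation from the mean of its breed, r was 0.90. Only 19 of 14397 other probe sets, or 0.132%, had an r with ALAS2 as high as or higher than HBM did, itself included.

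AHSP had r = 0.95 with ALAS2 and 0.93 with HBM (exact permutation, adjusted p = 0.0417 for both over 6 pairs that include AHSP, a set chosen after its values were seen). The Spearman rho was 0.89 for both (exact permutation p = 0.0333; adjusted 0.100 over the 6 pairs). Without Northeastern Indigenous replicates 1 and 2 these r were 0.93 and 0.88. Leaving out any 1 array gave r from 0.93 to 0.97 for ALAS2 with AHSP and from 0.90 to 0.95 for HBM with AHSP, and with 5 arrays the adjusted p was above 0.05 in all 12 of these fits.

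The HBB-labelled probe set had r = -0.18 with ALAS2 and -0.16 with HBM (exact permutation p = 0.806 for both, also after adjustment). The Spearman rho was 0.26 for both (exact permutation p = 0.658). Of the 14397 other probe sets, 59.1% had an r with ALAS2 as high as or higher than this one. Without Large White replicate 3 and Northeastern Indigenous replicate 3 the r with ALAS2 was 0.32, and with HBM -0.03, so the sign was not stable.

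**Figure D3:**
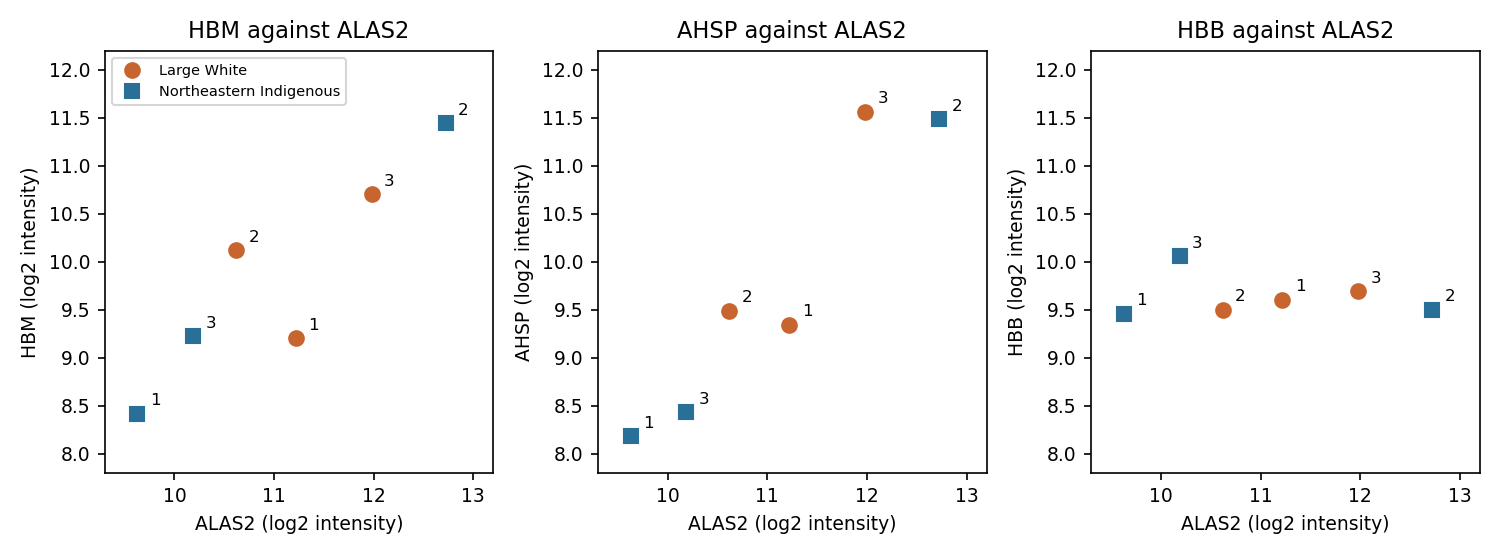
Log2 intensity of HBM, AHSP and the HBB-labelled probe set (vertical axes) against that of ALAS2 (horizontal axes), with 1 point per array and its replicate number, circles for Large White and squares for Northeastern Indigenous boars. HBM (r = 0.90) and AHSP (r = 0.95) climb with ALAS2, and the HBB-labelled probe set (r = -0.18) runs level.

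The other globin gene named on the array was HBE1, the embryonic epsilon chain. It read 6.44, 5.19 and 6.49 on Large White replicates 1, 2 and 3, and 6.22, 7.23 and 4.23 on Northeastern Indigenous replicates 1, 2 and 3. It was thus highest on Northeastern Indigenous replicate 2, as HBM and ALAS2 were, at a dimmer signal. Its lowest array was Northeastern Indigenous replicate 3, whereas theirs was replicate 1. Over the 6 arrays HBE1 had r = 0.67 with ALAS2 and 0.44 with HBM. Its breed difference was -0.14 ± 0.80 (SE; limma adjusted p = 0.924). Globin genes can share sequence, so a probe set may read more than 1 of them. In the RefSeq gene order of assembly Sscrofa11.1 the locus LOC100737768 lies directly beside HBM, and it was looked at after its values were seen. Its 3 probe sets had r with ALAS2 of 0.18, -0.16 and -0.27, so like the HBB-labelled probe set they did not track the red cell genes.

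Haem synthesis was followed through 9 of 14 listed genes, all above the intensity filter. None was called between the breeds, 6 were higher and 3 lower in Northeastern Indigenous boars, and the median difference was 0.26 log2 units against 0.10 over all probe sets tested. The breeds did not overlap in 3 of the 9, ALAS1, SLC25A37 and SLC25A38, against 25.1% of all probe sets. For SLC25A37 this held for the brightest probe set only. They overlapped in its other one, which differed by 0.34 ± 0.30 (SE).

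ALAS1, the form of the first enzyme used outside red cells, had a pattern unlike that of its erythroid counterpart. It read 8.61, 10.03 and 9.36 on Large White replicates 1, 2 and 3, and 10.80, 11.29 and 10.84 on Northeastern Indigenous replicates 1, 2 and 3. Every Northeastern Indigenous array lay above every Large White array, with a difference of 1.65 ± 0.40 (SE), which did not pass (limma adjusted p = 0.224). The other probe sets of ALAS1 differed by 1.86 ± 0.32 and 1.60 ± 0.42 (SE), also without overlap. Without Large White replicate 2 the difference was 1.98 (limma adjusted p = 0.0089), in a fit that called 30.7% of all probe sets. The sarcomere list lay low on Large White replicate 1, as given below, and its part in the ALAS1 difference was not tested.

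The later steps of the pathway did not share the pattern of ALAS2, with r over the 6 arrays of -0.10 for FECH and -0.26 for UROD. FECH, which inserts the iron into haem, ran from 10.71 to 11.69 over the 6 arrays and differed by 0.09 ± 0.32 (SE), and UROD, an earlier enzyme of porphyrin formation, differed by 0.26 ± 0.25 (SE). The mitochondrial iron importer SLC25A37 differed by 0.49 ± 0.29 and the mitochondrial carrier SLC25A38, which serves haem synthesis with glycine, by -0.56 ± 0.26 (SE). Limma's adjusted p was 0.875 for FECH, 0.532 for UROD, 0.354 for SLC25A37 and 0.284 for SLC25A38. On Northeastern Indigenous replicate 2, where ALAS2 stood 2.81 log2 units above the mean of the other arrays of its breed, FECH stood 0.13 and UROD 0.06 above it.

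**Figure D4:**
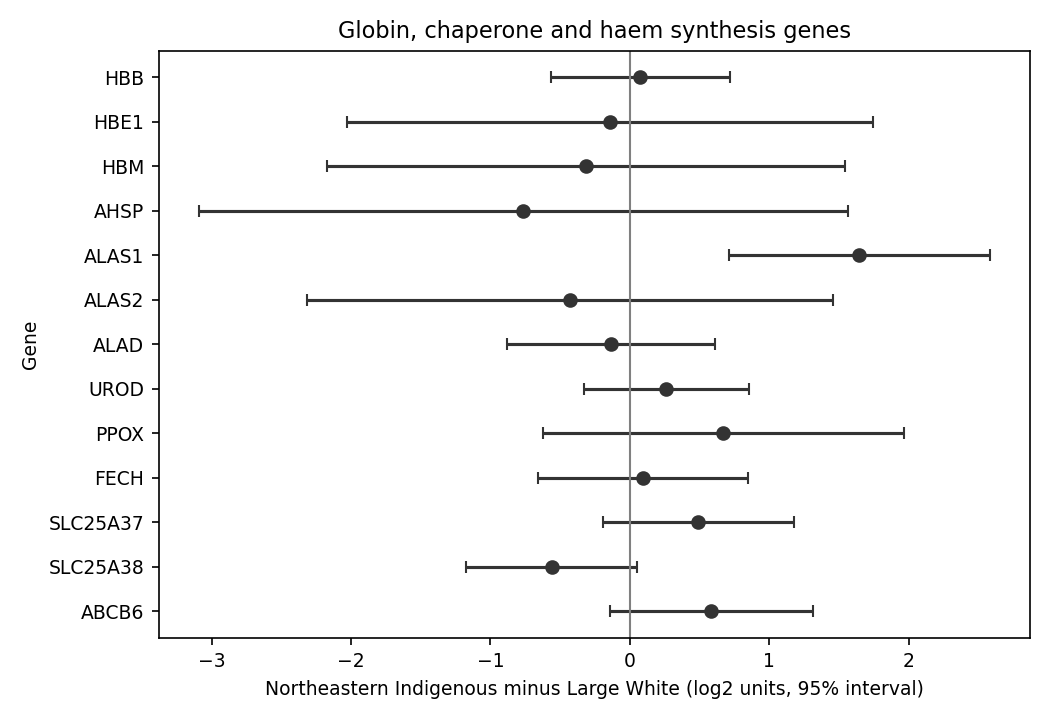
Northeastern Indigenous minus Large White difference (log2 units, with 95% interval from limma, n = 3 per breed) for the globin genes, AHSP and the haem synthesis genes. The intervals of HBM (-2.17 to 1.54) and ALAS2 (-2.31 to 1.46) are wide and span 0, the interval of the HBB-labelled probe set is narrow, and that of ALAS1 lies above 0 although its adjusted p of 0.224 did not pass.

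Genes of the red cell membrane and of red cell enzymes were a weaker readout. Of 33 listed genes 11 had a named probe set and 8 of these passed the filter. None was called, and their median difference was 0.21. EPB41, the membrane skeleton protein 4.1, read 8.05, 8.43 and 8.67 on Large White replicates 1, 2 and 3, and 8.39, 9.45 and 8.20 on Northeastern Indigenous replicates 1, 2 and 3, with its highest value on Northeastern Indigenous replicate 2. EPB41 was singled out after its values were seen. Of the 11 named genes of the list 6 were highest on replicate 2 among the Northeastern Indigenous arrays, against 32.6% of all probe sets without a filter, and the median named gene read 0.10 higher there on the log2 scale than the mean of the other two. TMOD1, an actin-capping protein of red cells and of muscle, read 8.52 on Large White replicate 1 against 11.48 to 12.95 on the other arrays. BPGM, the enzyme of 2,3-bisphosphoglycerate, read 8.54 there against 11.13 to 12.17. Both were low on the array on which the sarcomere genes were low, and not on the arrays with low ALAS2. The red cell markers SLC4A1, EPB42 and CA1 were not analysed here. Of 15 listed genes of erythroid transcription and iron entry 5 had a named probe set, and 1 passed the filter, LMO2, at -0.43 ± 0.28 (SE; limma adjusted p = 0.388). KLF1, the erythroid globin regulator, was below the filter. Over the 6 arrays it had r = -0.76 with ALAS2, -0.80 with HBM and -0.86 with AHSP. Its lowest array was Northeastern Indigenous replicate 2, at 4.31, where ALAS2 and HBM were highest. For the other named genes of this list, r with ALAS2 was 0.57 for LMO2, 0.18 for TFRC, 0.12 for BCL11A and -0.52 for EPOR.

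The 2 Large White arrays numbered 1 and 3 stood apart from the rest of the series, which bears on every breed difference above. On the first principal component, with 69.4% of the variance, their scores were -125.1 and -59.4 against 37.4 to 59.5 for the other 4 arrays. The adipocyte list had 11 named genes of 14 listed, 10 of them above the filter. Summed over the 11, its intensity was 11352 to 119196 on Large White arrays, against 8447 to 13042 on Northeastern Indigenous ones. The list for the sarcomere, the contractile unit of muscle, 17 of 21 genes, summed to 59471 on Large White replicate 1, 381416 and 313065 on replicates 2 and 3, and 382330 to 440181 in Northeastern Indigenous boars. The muscle markers DES and ACTN2 read 7.26 and 8.30 on Large White replicate 1 and at least 11.59 and 12.60 on all other arrays. No marker was at 0.

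ALAS2 and HBM followed that split in part. Their highest array, Northeastern Indigenous replicate 2, lay at -0.71 for the median adipocyte gene relative to its mean over the 6 arrays, and at 0.68 for the median sarcomere gene. Large White replicate 1, the array highest in adipocyte genes at 3.39, lay at 0.16 for ALAS2 and -0.65 for HBM. On other arrays the adipocyte genes did move with them. Large White replicate 3, second in adipocyte genes at 2.46, was also second in ALAS2 at 0.92 and HBM at 0.85. Northeastern Indigenous replicates 1 and 3 lay lower in adipocyte genes than replicate 2, at -1.83 and -1.68, and 7 of the 11 named adipocyte genes were highest on replicate 2 within the breed. The part of fat cells in the red cell signal was not tested. Without Large White replicates 1 and 3, the r of HBM with ALAS2 was 0.97 over the other 4 arrays, and the breed differences were 0.25 for ALAS2 and -0.42 for HBM, with Large White replicate 2 as the only array of its breed and assumed to vary like the others.

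Other cells of the blood were set beside the red cell genes. Of the platelet list 5 of 14 genes had a named probe set and 3 passed the filter. Over all 5 the summed intensities were 569.9 to 786.1 on Large White and 672.1 to 840.3 on Northeastern Indigenous arrays. On Northeastern Indigenous replicate 2 the median platelet gene lay 0.13 above its mean over the arrays, and 0.23 above it on both replicates 1 and 3. The platelet genes below the filter differed from these: PPBP, a platelet chemokine, read 1.29, 6.26 and 6.05 on Northeastern Indigenous replicates 1, 2 and 3, and ITGA2B, a platelet integrin chain, read 3.42, 6.32 and 6.41. Of the 5 named platelet genes 1, PPBP, was highest on replicate 2, and both PPBP and ITGA2B were lowest on replicate 1, as ALAS2 and HBM were. The 3 platelet genes above the filter, GP9, VWF and SELP, were lowest of the breed on replicate 2, at 7.68, 7.93 and 6.98. GP9 also read 7.68 on replicate 3. Another VWF probe set above the filter read 5.28, 6.45 and 6.58 on replicates 1, 2 and 3, and was thus lowest on replicate 1. For the brightest probe sets of GP9, VWF and SELP, r with ALAS2 over the 6 arrays was -0.46, -0.20 and -0.56. It was 0.64 for PPBP and 0.49 for ITGA2B. Of the neutrophil list 8 of 18 genes were named and 4 passed. Their median gene lay at 0.45 on Northeastern Indigenous replicate 2 and at 0.40 on replicate 3, where ALAS2 lay at 1.66 and -0.87. The summed intensity of the neutrophil list was 338.2 to 888.2 on Large White and 574.8 to 955.5 on Northeastern Indigenous arrays.

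Lymphocyte genes were higher on Northeastern Indigenous replicate 2 than on the other arrays of its breed. Of 18 listed genes 12 were named, and 11 of these had their highest Northeastern Indigenous value on replicate 2, where 32.6% of all 23999 probe sets did. No filter was used for this count, since 5 of the 7 genes above the filter passed it through their Large White values. This comparison within the breed was chosen after the values were seen. CD3D, a chain of the T cell receptor complex, read 3.01, 7.30 and 2.68 on Northeastern Indigenous replicates 1, 2 and 3, and 8.33, 6.12 and 7.75 on Large White replicates 1, 2 and 3. CD8A, the coreceptor of cytotoxic T cells, read 4.37, 7.04 and 5.57 in the former and 8.60, 6.09 and 8.14 in the latter. In Large White boars all 7 lymphocyte genes above the filter were lowest on replicate 2, where ALAS2 was lowest too, while HBM was lowest on replicate 1. That was not particular to lymphocytes. All 10 adipocyte genes and 8 of the 9 macrophage genes above the filter were lowest there as well, against 0 of 17 sarcomere genes. The share over all probe sets is not given here. Over the 6 arrays CD3D had r = 0.80 with ALAS2 and 0.62 with HBM, and CD8A 0.73 and 0.49. The named lymphocyte genes were not uniform in this. With ALAS2, CCR7 had r = -0.78 and CD4 -0.08, and the rest ran from 0.48 for CD3G to 0.82 for CD79B. With HBM, CCR7 had r = -0.48 and CD4 0.29, and the rest ran from 0.16 for CD3G to 0.86 for CD79B. The summed lymphocyte intensity was 762.7 to 3111 on Large White and 318.5 to 1179 on Northeastern Indigenous arrays.

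Macrophage genes also had their highest Northeastern Indigenous value on replicate 2 in 8 of 10 named cases. CD14, the lipopolysaccharide coreceptor, read 3.74, 7.01 and 6.05 on Northeastern Indigenous replicates 1, 2 and 3. CD163, the scavenger receptor for haemoglobin bound to haptoglobin, and ITGAM, an integrin chain, were the exceptions, and CD163 read 8.29, 8.28 and 7.79. The summed macrophage intensity was 2001 to 4159 in Northeastern Indigenous and 7313 to 26483 in Large White boars. The breeds thus did not overlap in this sum, while they overlapped in HBM and ALAS2. Bright genes weigh most in such a sum, and C1QC was the brightest of the list on every array. Gene by gene, the breeds did not overlap in 5 of the 9 macrophage genes above the filter, against 25.1% of all probe sets tested. Of these 9 genes 8 were lower in Northeastern Indigenous boars and 1, MARCO, was higher, by 0.28. The part of lymphocytes and macrophages in the red cell signal was not tested. Endothelial genes, which mark vessels rather than blood, had a median of 0.36 on Northeastern Indigenous replicate 2 and -0.23 to -0.03 on the other arrays, with summed intensities of 2935 to 3680 on Large White and 2577 to 3716 on Northeastern Indigenous arrays.

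**Figure D5:**
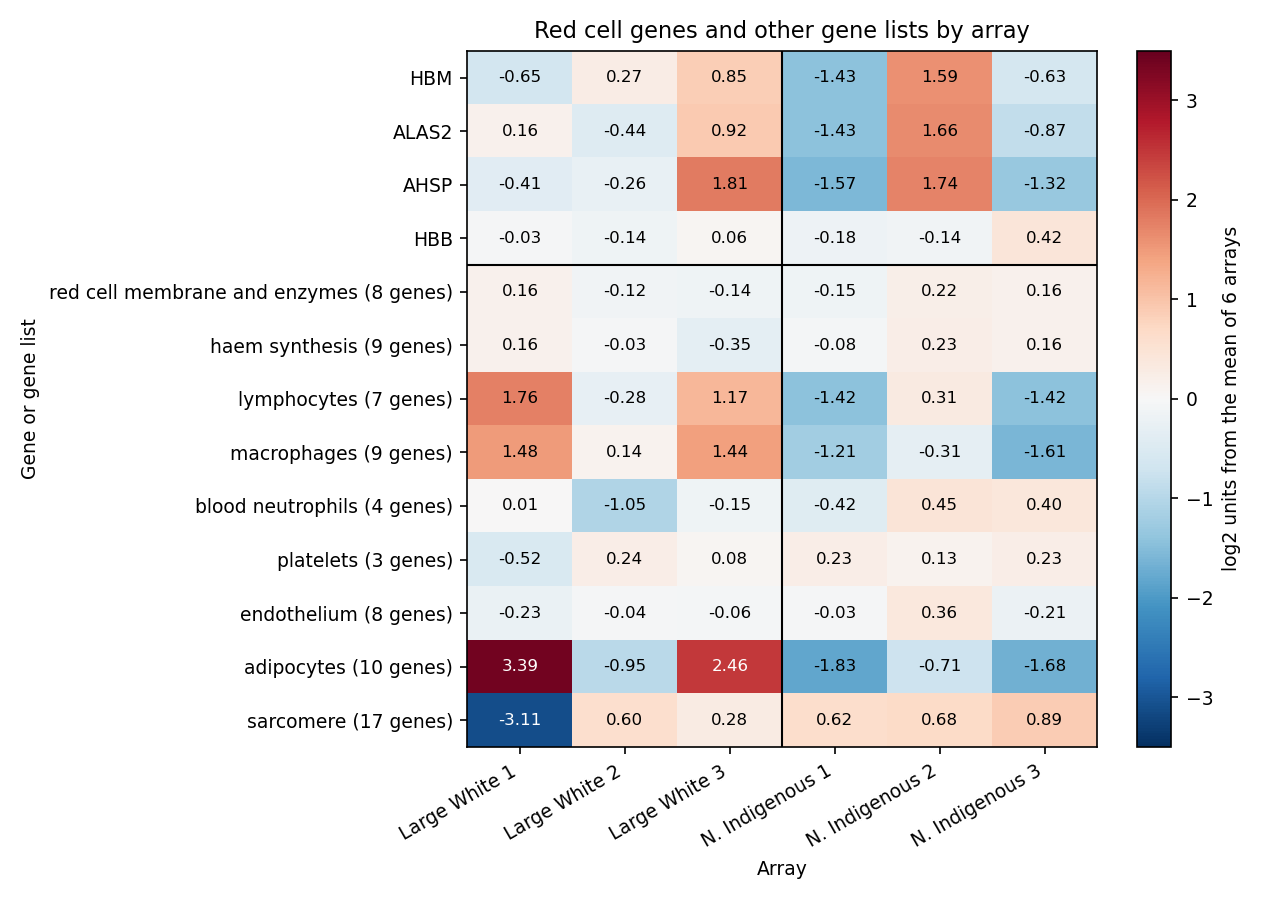
Log2 units from the mean of the 6 arrays for HBM, ALAS2, AHSP and the HBB-labelled probe set (top 4 rows) and, below them, the median of each gene list over its members above the filter, with arrays in columns and the value printed in each cell. ALAS2 and HBM are highest on Northeastern Indigenous replicate 2 (1.66 and 1.59), whereas adipocyte genes are highest on Large White replicate 1 (3.39).

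Genes that clear haemoglobin and haem were measured for 8 of 11 listed members, 7 above the filter, and none was called. HP, the plasma protein haptoglobin that binds free haemoglobin, read 4.40, 4.49 and 5.69 on Large White replicates 1, 2 and 3, and 7.85, 7.96 and 6.42 on Northeastern Indigenous replicates 1, 2 and 3. The breeds did not overlap in HP, with a difference of 2.55 ± 0.57 (SE; limma adjusted p = 0.224). Every Large White value of HP lay below the filter cut of 5.85, so it passed through its Northeastern Indigenous values. Of the 7 genes above the filter the breeds did not overlap in 3, against 25.1% of all probe sets tested. HMOX1, the inducible enzyme of haem breakdown, read 8.73, 7.99 and 8.19 on Large White replicates and 7.32, 7.98 and 8.23 on Northeastern Indigenous ones, and it was not highest on the array with the most ALAS2. HMOX2, the constitutive form, differed by 1.06 ± 0.29 (SE; limma adjusted p = 0.224), without overlap. The ferritin light chain FTL differed by -0.67 ± 0.25 (SE; limma adjusted p = 0.246). A dimmer FTL probe set above the filter differed by -1.45 ± 0.47 (SE; limma adjusted p = 0.227), without overlap. The median over the 7 genes was -0.17.

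The named genes most like the HBB-labelled probe set over the 6 arrays were POLE4 (r = 0.99), ZBED5 (0.98), PA2G4 (0.96), WDR82 (0.95) and NSMAF (0.94). The least like it were CEND1 (r = -0.97), S100G (-0.97), RHOG (-0.96), DHRS1 (-0.96) and TTLL1 (-0.96). None of these 10 is in the lists of red cell genes. POLE4 read 12.08 on Northeastern Indigenous replicate 3 and 11.57 to 11.76 on the other arrays, the same single high array as the HBB-labelled probe set.

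The genes most like ALAS2 and HBM were listed after their values were seen. With ALAS2 they were B3GNT3 (r = 0.98), NCALD (0.98), B2M (0.97), AHSP (0.95) and P4HA2 (0.94). With HBM they were HSP70.2 (r = 0.99), PDGFRB (0.97), FAM46C (0.96), P4HA2 (0.96) and AHSP (0.93). B2M, the shared light chain of class I molecules, followed the order of ALAS2 on all 6 arrays (Spearman rho = 1), from 14.63 on Northeastern Indigenous replicate 1 to 15.21 on replicate 2. HSP70.2, an inducible heat shock protein, ran from 11.95 to 13.18 on the same arrays. AHSP and P4HA2 stood in both lists, and the SD of AHSP over the 6 arrays was 1.47 against 0.56 for P4HA2. These likenesses describe 6 arrays that share animals and normalization.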

How the data were processed

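Longissimus dorsi of 6 boars, 3 per breed, was measured on 1 Affymetrix Porcine Genome Array each. The deposited table holds a linear intensity for each probe set on each array, made by the authors. The software behind it is not given in the sources used here. The mean intensity without the lowest and highest 2% was about 500.1 on each array in the deposited table, which points to a shared scale before deposit. Arrays give no read depth, and their number limits the precision.

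The 124 control probe sets of 24123 were left out. Intensities were taken as log2, quantile normalized, and kept at or above the 40th percentile of the mean, which left 14399 probe sets, all 3 members among them. Names came from the platform annotation, and the gene identifiers of all 3 members were found in RefSeq. Where a listed gene had more than 1 probe set, the brightest stood for it. Summed intensities covered all named genes of a list, those below the filter too. Medians of a list covered the genes above the filter, except where named genes are stated. Differences came from limma 3.58.1 under R 4.3.3 (lmFit, eBayes with an intensity trend, two-sided, 4 residual degrees of freedom, Benjamini-Hochberg over all 14399). The fit was tested on simulated data. Correlations used exact permutation in scipy 1.17.1.

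The members and gene lists were chosen with earlier results of these data known. Genes were named by a rule covering all members, the listed genes, and the 5 most and 5 least like the HBB probe set. The labels do not say how animals were chosen, so p-values measure the spread between these arrays. Alternatives changed the scaling, filter, offset, variance prior, block and arrays.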

Additional observations from a re-analysis of the deposited data

How the results depend on the processing

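None of the 3 members was called under any of the 15 alternatives to the limma fit. The count of 0 probe sets called became 1 with arrays centred on their medians, and leaving out 1 array gave 0 to 4425, the highest without Large White replicate 2. Signs of the breed differences were not stable. The HBB-labelled probe set turned to -0.070 on the deposited values, and ALAS2 to 0.25 without Large White replicates 1 and 3. Leaving out 1 array gave -0.12 to 0.18 for the HBB-labelled probe set, -1.19 to 0.32 for HBM, -1.35 to 0.18 for ALAS2, -1.82 to -0.03 for AHSP and 1.31 to 1.98 for ALAS1. The r of HBM with ALAS2 was 0.81 to 0.97 when 1 array was left out, and on the deposited values it was 0.93 and passed (exact permutation, adjusted p = 0.025). Leaving out 1 array gave r of -0.56 to 0.27 for HBB with HBM, -0.57 to 0.46 for HBB with ALAS2 and -0.54 to 0.54 for HBB with AHSP. The cause was not tested. For the correlations, leaving out Large White replicates 1 and 3 and taking deviations from breed means were chosen after seeing the data. Each member has 1 probe set, so the mean over probe sets changed nothing.

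Whether the replicate numbers pair the animals could not be decided from so few arrays per breed. Same-numbered arrays had deviations from their breed means that correlated at -0.02, -0.16 and -0.11, none of them positive. The split among the Large White arrays described above also enters these deviations. With the replicate number as a block the differences were 0.08, -0.31 and -0.43 for HBB, HBM and ALAS2 (limma adjusted p = 0.909, 0.786 and 0.788), and 0 probe sets were called.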
